A study of Mus musculus with 3 samples.

Results

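The Ly6 family examined here comprised the 7 genes named Ly6a, Ly6c1, Ly6c2, Ly6d, Ly6e, Ly6g and Ly6i in the gene list of the count matrices, out of 32285 genes listed. They were measured by droplet single-cell RNA sequencing of mouse spleen cells after T cells had been depleted with CD3 microbeads. There were 3 libraries of mice aged 12 to 14 weeks, each combining 2 conditions of 3 mice. The control library held male C57Bl/6 mice with sham minipumps and female C57Bl/6 mice. The AngII library held C57Bl/6 mice given angiotensin II (490 ug/kg/min by minipump for 2 weeks from 10 weeks of age) together with placebo or with 2HOBA (2-hydroxybenzylamine), a scavenger of reactive lipid aldehydes. The SLE123 library held B6.SLE123 mice, a congenic lupus-prone strain, which took 2HOBA or placebo for 6 weeks from 7 weeks of age. Each library carried 6 antibody hashtags, C0301 to C0306, which the labels tie neither to a condition nor to a mouse. The hashtag populations therefore stayed unassigned, placebo was not compared with 2HOBA, and each comparison was of 1 library with 1 library, for which no test exists.

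Ly6 proteins are small, cysteine-rich surface proteins, most of them held in the outer leaflet of the membrane by a glycosylphosphatidylinositol (GPI) anchor. Several are antigens by which mouse leukocytes are sorted, among them Ly6C (from Ly6c1 and Ly6c2) on inflammatory monocytes, Ly6G on neutrophils and Sca-1 (from Ly6a) on hematopoietic progenitors and activated lymphocytes. Ly6d marks commitment to the B lineage, Ly6e is broadly expressed, and Ly6a and Ly6e are known to be induced by interferon.

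The 7 genes lie on chromosome 15 between positions 74762056 and 75159126 (GRCm38, GENCODE vM21). From low to high coordinate the order was Ly6d, Ly6e, Ly6i, Ly6a, Ly6c1, Ly6c2 and Ly6g, with Ly6e and Ly6g on the plus strand and the others on the minus strand. Their principal transcripts encode 127 (Ly6d) to 136 residues (Ly6e), of which 10 to 13 are cysteines. Ly6c1 and Ly6c2 are near copies, with 384 of 393 coding bases identical (97.7%). The first 100 bases of their transcripts matched at 76 of 115 aligned positions (66.1%), with gaps counted as mismatches. Their annotated starts lie 59 and 44 bases before the coding start, so that share also reflects this offset and does not measure divergence alone. Where in the transcripts the reads fell was not examined. The start of the coding sequence of this pair is shown because separate counts of the 2 genes rest on such differences, and capitals mark the 6 of 120 bases that differ.
Ly6c1: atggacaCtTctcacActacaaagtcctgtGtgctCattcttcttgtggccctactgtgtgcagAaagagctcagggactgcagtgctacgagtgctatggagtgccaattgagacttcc
Ly6c2: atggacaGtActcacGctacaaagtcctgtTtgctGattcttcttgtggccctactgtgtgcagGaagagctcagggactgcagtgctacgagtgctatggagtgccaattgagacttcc
A read that matches both genes cannot be given to 1 of them, so the split of counts within this pair is uncertain. Among the other pairs of members, coding identity ran from 48.3% (Ly6d and Ly6i) to 86.3% (Ly6a and Ly6i).

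Promoters were at hand for Ly6c1, Ly6c2 and Ly6g, 3 of the 7 members. They are shown because these close relatives were high in different classes, though Ly6g and Ly6c2 were largely in the same neutrophil-like cells. Each is the 250 bases before the RefSeq transcript start (GRCm38.p6), at chr15:75048838-75049087 (minus strand), chr15:75111972-75112221 (minus strand) and chr15:75155011-75155260 (plus strand), in that order, and the GENCODE start of Ly6g, 75155240, falls inside its window. Capitals mark GAGGAAGT, core letters bound by PU.1, a transcription factor of myeloid and B cells.
Ly6c1: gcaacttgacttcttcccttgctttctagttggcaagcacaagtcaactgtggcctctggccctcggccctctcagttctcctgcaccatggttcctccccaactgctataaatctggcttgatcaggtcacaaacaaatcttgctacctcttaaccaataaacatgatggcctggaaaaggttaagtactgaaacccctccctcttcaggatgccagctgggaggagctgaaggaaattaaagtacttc
Ly6c2: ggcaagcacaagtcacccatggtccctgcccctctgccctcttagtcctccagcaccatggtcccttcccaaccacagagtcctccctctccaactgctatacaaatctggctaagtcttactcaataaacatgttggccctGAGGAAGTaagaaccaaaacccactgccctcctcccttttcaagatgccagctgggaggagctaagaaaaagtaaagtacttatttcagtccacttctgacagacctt
Ly6g: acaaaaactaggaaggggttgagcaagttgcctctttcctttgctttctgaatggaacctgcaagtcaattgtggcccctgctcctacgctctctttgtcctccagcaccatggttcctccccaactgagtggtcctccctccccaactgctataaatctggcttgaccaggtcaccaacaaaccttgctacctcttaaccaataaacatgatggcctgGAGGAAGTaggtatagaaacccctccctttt
These letters stood, on either strand, in 2.44% of 27025 promoters of that length. They stood once each in the Ly6c2 and Ly6g windows, on the sense strand, and not in the Ly6c1 window. Neither the letters GAAANNGAAA of the interferon-stimulated response element (3.04% of promoters) nor TTCNNNGAA of the gamma-activated site (7.18%) was in these 3 windows.

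The control, AngII and SLE123 matrices held 18218, 16062 and 20691 barcodes and 44146350, 59043555 and 63516694 unique molecular identifiers (UMIs) on genes. Kept cells numbered 15700, 14017 and 16702, with median depths of 1759, 2724 and 1888 UMIs, and pairs of libraries shared 415 to 496 barcodes. Cells were put into classes by markers that include no Ly6 gene, and such names end in "-like". The plasma cell-like class was led by immunoglobulin variable segments, with none of its own markers among its 10 leading genes. Xist, transcribed from the inactive X chromosome, was found in 49.2% to 51.7% of cells of control hashtags C0304 to C0306 and in at most 0.386% of those of C0301 to C0303. No AngII cell had Xist and no SLE123 cell had a Y-linked transcript, and the labels put sham pumps with the males alone. Ratios to the whole control library therefore also set cells without Xist (AngII) or with it (SLE123) against a mixture of both. Most ratios are also given against the 3 control hashtags alike in Xist to the model library, C0301 to C0303 for AngII and C0304 to C0306 for SLE123, a comparison added after the values were seen. Some are also given against Xist-positive control cells, those with a Xist UMI. These were picked by detection, which leaves out cells of the same hashtags without such a UMI, and they are unlike the AngII cells in Xist. Levels are given as CPM, counts of a gene per 1000000 UMIs of the class, with exact Poisson 95% intervals, and log2 ratios to the control library with exact conditional 95% intervals. Both intervals cover counting error only, and UMI levels are not compared between genes.

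The members differed in the cells that held them, in much the same way in the 3 libraries. Ly6a and Ly6d were mainly B cell-like and pDC-like genes, Ly6e was broad, Ly6c2 was high in classical monocyte-like and pDC-like cells, Ly6g in neutrophil-like cells, Ly6i in nonclassical monocyte-like cells and Ly6c1, in the AngII library, in T cell-like cells. Plasmacytoid dendritic cells (pDCs) are potent producers of type I interferon, and the pDC-like class held 4 of the 7 members at over 1000 CPM in each library.

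**Figure D1:**
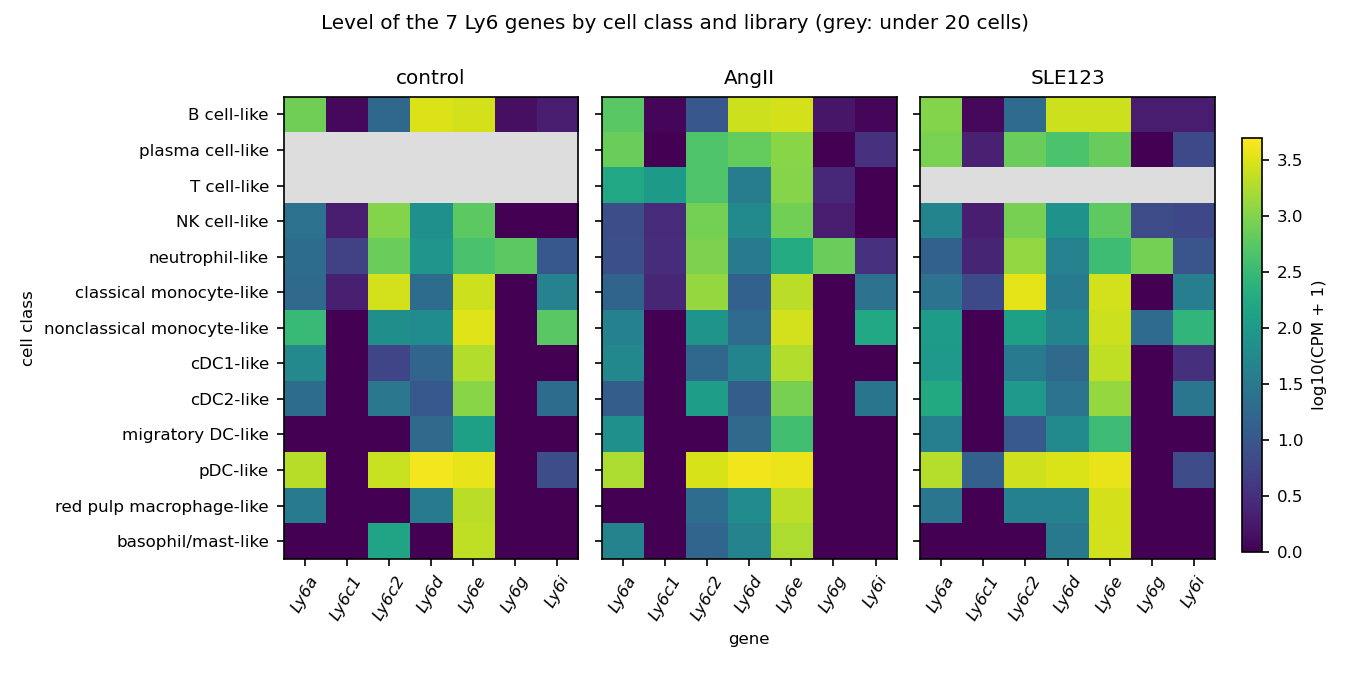
Level of each Ly6 gene (columns) in 13 cell classes (vertical axis) of the 3 libraries (panels), as the colour of log10(CPM + 1), with grey for classes under 20 cells in that library. Ly6e is high in most classes, Ly6g is high in neutrophil-like and Ly6i in nonclassical monocyte-like cells, and pDC-like cells are high for Ly6a, Ly6c2, Ly6d and Ly6e.

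Ly6d, the B lineage member, stood at 4305 (3981 to 4648), 4167 (3851 to 4501) and 3085 (2817 to 3373) CPM in pDC-like cells of the control, AngII and SLE123 library. In B cell-like cells it stood at 3229.8 (3209 to 3251), 2589 (2573 to 2606) and 2591 (2573 to 2609.5) CPM. A Ly6d UMI was found in 94.1%, 94.1% and 91.0% of B cell-like cells, whose median depths were 1778, 2749 and 1933 UMIs. NK cell-like cells, which should lack Ly6d, had a UMI in 7.36%, 9.16% and 6.60% of cells at median depths of 1711, 2432 and 1324, and shares of that size were read as background RNA.

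Germinal centre B-like cells, from the site where antibodies mature, held far less Ly6d than transitional, marginal zone and follicular B-like cells. In the control library, transitional B-like cells, the recent arrivals from the marrow, held 4357 (4239.9 to 4476) CPM. Marginal zone B-like cells held 3511 (3451 to 3572) and follicular B-like cells 3104 (3078 to 3129) CPM. Germinal centre B-like cells held 253 (202 to 313), 334 (281 to 394) and 161 (147 to 176) CPM in the control, AngII and SLE123 library. That was below the other 3 subsets in each library.

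Ly6d was lower in the B cell-like cells of both disease models than in those of the control library. The 6 control hashtag populations ran from 2978 to 3730.4 CPM with a median of 3192. Those of AngII ran from 2460.0 to 2927 (median 2549) and lay wholly below the control range. Those of SLE123 ran from 2185 to 2980.4 (median 2627), and the highest reached just into the control range. The log2 ratio was -0.32 (-0.33 to -0.31) in AngII and -0.32 (-0.33 to -0.30) in SLE123, and against the control hashtags alike in Xist -0.34 (-0.36 to -0.33) and -0.29 (-0.31 to -0.28). Of 4 members with at least 50 UMIs, Ly6d alone had hashtag values that did not overlap between AngII and control, as did 12.8% of all genes. In SLE123, 0 of 5 members separated in this way, beside 19.9% of all genes. Germinal centre B-like cells, low in Ly6d, numbered 55 of 13063 B cell-like cells in control, 66 of 11482 in AngII and 506 of 12560 in SLE123. The Ly6d level of the whole class therefore also reflects this make-up, whose part in the ratios was not tested.

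The B cell subsets shared in this unequally. In marginal zone B-like cells the Ly6d log2 ratio was -0.29 (-0.32 to -0.25) in AngII and 0.0019 (-0.034 to 0.037) in SLE123. In transitional B-like cells it was -0.22 (-0.28 to -0.15) and -0.50 (-0.57 to -0.44). In follicular B-like cells it was -0.30 (-0.31 to -0.28) and -0.17 (-0.19 to -0.15). The SLE123 level of Ly6d was thus within counting error of the control level in marginal zone B-like cells, and of these 3 subsets the transitional one had the lowest SLE123 ratio. The SLE123 ratio against the control hashtags alike in Xist was 0.022 (-0.017 to 0.062) in marginal zone and -0.37 (-0.44 to -0.29) in transitional B-like cells. The pDC-like cells had log2 ratios of -0.047 (-0.21 to 0.11) in AngII and -0.48 (-0.65 to -0.31) in SLE123, over 24 to 45 cells a library.

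In B cell-like cells, Ly6a, which encodes Sca-1, differed from the whole control library in opposite directions in the 2 models. In pDC-like cells it stood at 2021 (1801 to 2259.9), 1774 (1570.2 to 1996) and 1953 (1741 to 2184) CPM in the control, AngII and SLE123 library, with overlapping intervals. In B cell-like cells it stood at 777 (766 to 787), 565 (557 to 573) and 1020.2 (1009 to 1032) CPM. Log2 ratios of the B cell-like cells were -0.46 (-0.49 to -0.43) in AngII and 0.39 (0.37 to 0.42) in SLE123. With each cell thinned to 1000 UMIs, 40.2%, 33.4% and 52.1% of B cell-like cells had a Ly6a UMI, and unthinned 53.3%, 54.1% and 66.1% did. In NK cell-like cells the unthinned shares were 2.45%, 1.73% and 2.90%.

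Hashtag populations of each model overlapped those of the control library for Ly6a, but those of AngII lay below those of SLE123. Those of the control library ran from 559.5 to 1084 CPM (median 783), those of AngII from 512 to 644 (median 567) and those of SLE123 from 849.7 to 1372 (median 969). The 3 control hashtags without Xist held 563, 824 and 559.5 CPM, and of the 3 with Xist the lowest held 742 and the highest, C0305, 1084 CPM. With control cells limited to those with a Xist UMI, the SLE123 ratio was 0.078 (0.043 to 0.11), and against all cells of the control hashtags alike in Xist it was 0.19 (0.16 to 0.22). The AngII ratio against the control hashtags alike in Xist was -0.23 (-0.26 to -0.19). The size of both differences therefore depended on which control cells they were set against, and their direction did not in these comparisons. Of the 3 control hashtags without Xist, however, C0301 and C0303 lay inside the AngII range. The AngII ratio against these 3 thus rested on C0302, at 824 CPM.

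**Figure D2:**
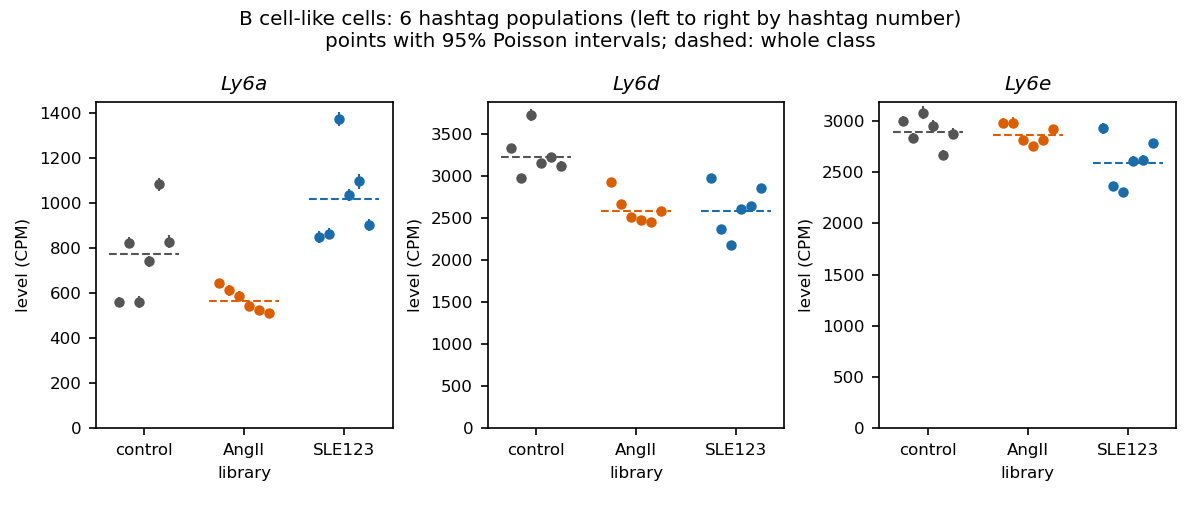
Level in CPM (vertical axis) of Ly6a, Ly6d and Ly6e in B cell-like cells of the 6 hashtag populations (points, with 95% Poisson intervals) of each library (horizontal axis), and of the whole class (dashed). The 6 AngII populations lie below the 6 control populations for Ly6d, and each model overlaps control for Ly6a and Ly6e.

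Of the 4 B cell subsets with at least 20 cells in each library, Ly6a was highest in marginal zone B-like cells, which line the white pulp and screen blood. These held 1447 (1409 to 1486), 1063 (1032 to 1094) and 1492 (1451 to 1532) CPM in the control, AngII and SLE123 library. Follicular B-like cells held 661 (649 to 673), 490.0 (482 to 498) and 959.7 (945 to 975) CPM. Transitional B-like cells held 439.8 (403 to 479), 307 (271 to 346) and 859 (802 to 920.3) CPM, and germinal centre B-like cells 355 (294 to 425), 269 (222 to 324) and 342 (321 to 364) CPM. In SLE123, B1-like B cells held 1651 (1569 to 1737) CPM in 243 cells and T-bet/CD11c B-like cells 1559 (1448 to 1676) CPM in 125 cells, levels above that of marginal zone B-like cells, but the control library had only 18 and 19 cells of these subsets. Marginal zone B-like cells made up 3.75% to 16.2% of the B cell-like cells of a control hashtag, with 16.2% in C0305, 6.65% to 9.31% in AngII and 4.31% to 13.2% in SLE123, so the level of the whole class also reflects this make-up.

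Of these 4 subsets, the higher Ly6a of SLE123 was in transitional and follicular B-like cells, at log2 ratios of 0.97 (0.81 to 1.13) and 0.54 (0.50 to 0.57). It was not detectable in marginal zone B-like cells, at 0.044 (-0.011 to 0.099), or in germinal centre B-like cells, at -0.053 (-0.33 to 0.23). Follicular hashtag populations overlapped, at 473 to 929 CPM in control and 700 to 1433 in SLE123. B cell-like cells of no subset also held more in SLE123, at 1126 (1099 to 1154) CPM against 813 (784 to 842) in control. In AngII the ratios were -0.52 (-0.74 to -0.30) in transitional, -0.44 (-0.50 to -0.39) in marginal zone, -0.43 (-0.47 to -0.40) in follicular and -0.40 (-0.79 to -0.014) in germinal centre B-like cells. All 4 were below 0. Against the control hashtags alike in Xist, the SLE123 ratios were 0.83 (0.63 to 1.03) in transitional, 0.40 (0.36 to 0.45) in follicular and -0.086 (-0.15 to -0.027) in marginal zone B-like cells. The AngII ratios were then -0.38 (-0.64 to -0.12), -0.31 (-0.35 to -0.27) and -0.12 (-0.20 to -0.029).

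B cell-like cells with more UMIs of interferon response genes, a list of 12 of which 11 were in the matrices, had more Ly6a. In the control library, thinned B cell-like cells with 0, 1 to 2, and 3 or more UMIs of the list held 652 (636 to 669), 907 (869.7 to 945) and 1545 (1386 to 1719) CPM of Ly6a. In AngII they held 477, 669 and 1049 CPM, and in SLE123 910.3, 1187 and 1766 CPM. The libraries, with control taken whole, kept the order AngII, control, SLE123 at each number of UMIs, cells with none included. At 3 or more UMIs the SLE123 interval, 1613 to 1931 CPM, overlapped that of control. Ly6c2 went from 12.3 (10.2 to 14.7) to 95.5 (59.1 to 146) CPM in control B cell-like cells. Ly6d went from 3307 to 3600 and Ly6e from 2990.1 to 3582 CPM, smaller steps for their level.

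**Figure D3:**
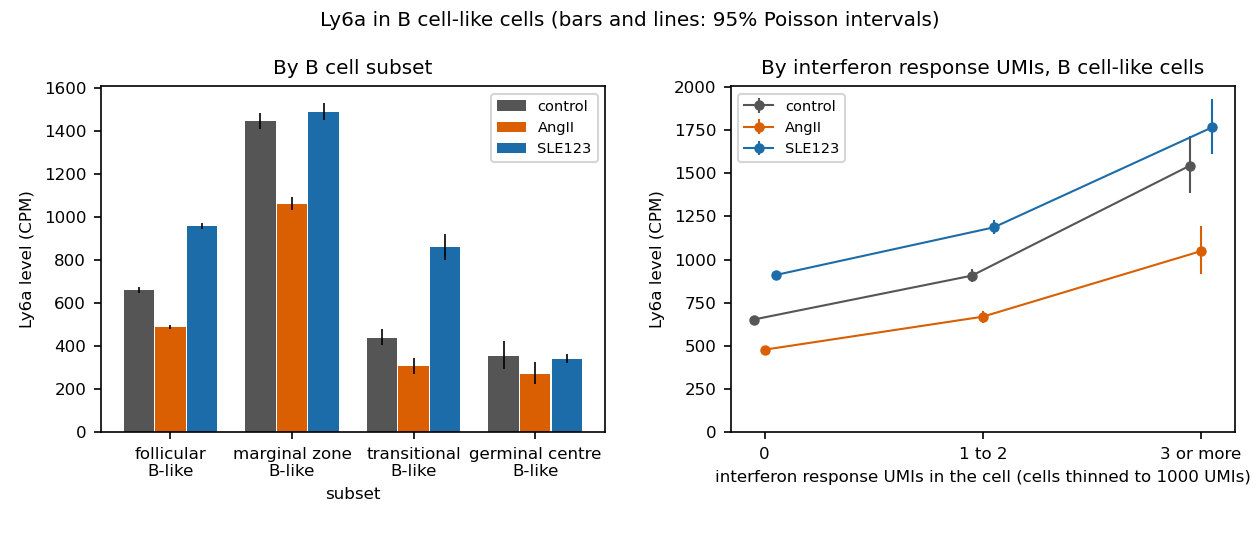
Left, Ly6a level (CPM) in 4 B cell-like subsets (horizontal axis) of the 3 libraries; right, Ly6a level in B cell-like cells thinned to 1000 UMIs, by interferon response UMIs in the cell, all with 95% Poisson intervals. Marginal zone B-like cells are highest of these 4 in each library, and in each the level goes up with interferon UMIs, in control from 652 to 1545 CPM.

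Over the 18 hashtag populations of B cell-like cells, the genes with the pattern most like Ly6a, among 3465 genes, were B2m (Pearson r = 0.95), Ifi27 (0.94), H2-Q7 (0.93), H2-K1 (0.93) and Psmb9 (0.92). B2m, H2-Q7 and H2-K1 encode parts of MHC class I molecules, Psmb9 a subunit of the immunoproteasome and Ifi27 an interferon-induced protein. The summed interferon response list had r = 0.72 with Ly6a, and inside the control, AngII and SLE123 library r = 0.82, 0.06 and 0.85 over 6 populations each. A list of interferon gamma inducible genes had r = 0.62 with Ly6a, and inside the libraries 0.82, -0.80 and 0.67. Ly6e went the other way, with r = -0.71 for the response list and -0.73, 0.40 and -0.72 inside the libraries. For the interferon gamma list its r was -0.80, and inside the libraries -0.88, -0.57 and -0.92. These populations share libraries and depth.

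In B cell-like cells of SLE123, 1 of 11 interferon response genes was past 2-fold, upward, beside 7.00% of all genes, and the median log2 ratio was 0.15 beside -0.046 over all genes. Ifi44 (1.92) and Usp18 (0.67) were highest and Oasl2 (-0.39) and Rsad2 (-0.33) lowest. In AngII, 0 of 10 were past 2-fold, beside 1.66%, and the median was 0.0041 beside 0.054, with Ifit1 (0.39) and Irf7 (0.36) highest and Isg15 (-0.51) and Oasl2 (-0.25) lowest. Of 12 interferon gamma inducible genes, 1 was past 2-fold in SLE123, upward, and the median was 0.033, with Socs1 (1.53) and Gbp2 (0.65) highest and Iigp1 (-0.45) and Irgm2 (-0.43) lowest. In AngII 1 of the 12 was, Iigp1 downward with 1 UMI against 79 in control, a log2 ratio of -6.69 (-12.02 to -4.17). The median was -0.094, with Tgtp2 (0.30) and Gbp5 (0.25) highest and Iigp1 and Socs1 (-0.41) lowest.

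Ly6e, the broadest member, was found in 97.4%, 97.8% and 97.7% of B cell-like cells in the control, AngII and SLE123 library. It stood at 3699 (3399.6 to 4018), 3928 (3622 to 4253) and 3734 (3438 to 4049) CPM in pDC-like cells. Nonclassical monocyte-like cells held 3294 (3120.4 to 3475), 2774 (2578 to 2981) and 2624 (2494 to 2759) CPM and B cell-like cells 2892 (2872 to 2913), 2865 (2847 to 2882) and 2593 (2575 to 2611) CPM. Neutrophil-like cells were low at 428 (391 to 468), 186 (170.2 to 204) and 355 (325 to 387) CPM, as were migratory DC-like cells at 124 (49.9 to 256), 376 (233 to 574) and 348 (243 to 481) CPM.

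Differences in Ly6e were small in B cell-like cells. Hashtag populations ran from 2669 to 3076 CPM in control, 2756 to 2982 in AngII and 2304 to 2925 in SLE123, and all 3 ranges overlapped. The log2 ratio was -0.16 (-0.17 to -0.14) in SLE123 and -0.014 (-0.027 to -0.00046) in AngII, the second turning to 0.060 with Xist-positive control cells and to 0.037 with the study's limits read as UMIs. In NK cell-like cells Ly6e was at 824 (771 to 879.5) CPM in AngII and 577 (533 to 624) in control, a log2 ratio of 0.51 (0.37 to 0.66), and of 0.29 (0.10 to 0.47) against the control hashtags alike in Xist. The AngII hashtags there ran from 619 to 888 CPM and overlapped the control hashtags at 418 to 729 CPM. Nonclassical monocyte-like cells had ratios of -0.25 (-0.38 to -0.12) in AngII and -0.33 (-0.43 to -0.22) in SLE123. Their control hashtag populations with at least 20 cells ran from 2734 to 3615 CPM (median 2910). Those of SLE123 overlapped them at 2486 to 3263 CPM (median 2921), and the single one of AngII held 2722 CPM. The highest control value was that of C0305 and the lowest SLE123 value that of C0303. Ratios against the control hashtags alike in Xist are not given for this class.

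No member with at least 50 UMIs reached a 2-fold difference in B cell-like cells. In SLE123 the count was 0 of 5 members, beside 7.00% of all genes, and in AngII 0 of 4, beside 1.66%. In NK cell-like cells it was 0 of 4 in SLE123, beside 1.75% of genes, and 0 of 3 in AngII, beside 1.27%. In plasma cell-like cells, of which the control library had only 18, Ly6a stood at 744 (664 to 831) CPM in AngII and 915 (878 to 954) in SLE123.

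Ly6c2, which encodes the Ly6C of inflammatory monocytes, stood at 2778 (2669 to 2890.1), 1316 (1231 to 1406) and 3544 (3419 to 3673) CPM in classical monocyte-like cells of the control, AngII and SLE123 library. It was found in 92.3%, 89.6% and 90.9% of these cells (median depths 4692, 7171 and 4126 UMIs) and in 7.88%, 5.06% and 3.56% of nonclassical monocyte-like cells (median depths 2130, 2949 and 1638), which are known to lack Ly6C. The pDC-like cells held 2488 (2244 to 2752), 2999 (2733 to 3285) and 2697 (2447 to 2967) CPM. B cell-like cells held little, at 16.6 (15.1 to 18.2), 9.07 (8.11 to 10.1) and 18.3 (16.8 to 19.9) CPM.

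Classical monocyte-like cells of AngII had less Ly6c2 than control, at a log2 ratio of -1.08 (-1.19 to -0.97), and those of SLE123 more, at 0.35 (0.27 to 0.43). Among hashtag populations with at least 20 of these cells, the 2 of AngII held 1305 and 1469 CPM, the 4 of control 1583 to 3851 and the 3 of SLE123 2581 to 4434 CPM. The AngII values lay below the control values, and those of SLE123 overlapped them. Control hashtag C0305 gave 82 of the 194 control cells, and without it the ratios were -0.64 in AngII and 0.79 in SLE123. SLE123 hashtag C0303 gave 61 of 187 cells, and without it the SLE123 ratio was 0.067. With control hashtags alike in Xist the AngII ratio was -0.42 (-0.57 to -0.27), and the SLE123 ratio, 0.034 (-0.050 to 0.12), was within counting error of 0.

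NK cell-like cells held 1024 (965 to 1086), 841 (788 to 897) and 874 (816 to 936) CPM of Ly6c2. Their hashtag populations ran from 831 to 1353 CPM in control, 764 to 943 in AngII and 517 to 1152 in SLE123, all overlapping. The log2 ratios of -0.28 (-0.41 to -0.16) in AngII and -0.23 (-0.36 to -0.097) in SLE123 changed sign, to 0.46 and 0.51, against Xist-positive control cells. Against all cells of the control hashtags alike in Xist they were -0.49 (-0.64 to -0.34) and -0.027 (-0.19 to 0.13), and with the study's limits read as UMIs the AngII ratio was 0.050. Plasma cell-like cells held 475 (412 to 545) CPM in AngII and 719.8 (687 to 754) in SLE123. In B cell-like cells the AngII ratio of -0.87 (-1.08 to -0.66) became -0.36 without control hashtag C0305 and -0.28 (-0.56 to 0.011) against the control hashtags alike in Xist.

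In the AngII library Ly6c1, the near copy of Ly6c2, was found mainly in other cells. It gave 15, 149 and 23 UMIs over all kept cells of the control, AngII and SLE123 library, and 128 of those of AngII were in T cell-like cells. T cells had been depleted, and 278 of the 289 T cell-like cells of AngII carried hashtag C0303, where they made up 12.4% of kept cells. The other 17 hashtag populations of the series held 0 to 5 T cell-like cells each. The Ly6c1 of the AngII library thus came with the T cells of 1 hashtag population, which gave 123 of those UMIs.

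Within these AngII T cell-like cells the pair divided by subset. CD4 T-like cells held 147 (105 to 201) CPM of Ly6c1 and no Ly6c2 UMI in 64 cells. CD8 T-like cells held 9.12 (3.35 to 19.9) CPM of Ly6c1 and 864 (794 to 938) CPM of Ly6c2 in 134 cells. T cell-like cells of neither subset held 250.2 (199 to 310.1) CPM of Ly6c1 and 81.4 (53.6 to 118) CPM of Ly6c2. Of 61 T cell-like cells with Ly6c1 and 76 with Ly6c2, 3 had both. In neutrophil-like cells of AngII, by contrast, each of the 5 cells with Ly6c1 also had Ly6c2, and in classical monocyte-like cells of SLE123 each of 5 did. Whether reads of Ly6c2 were counted there as Ly6c1 was not tested.

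Ly6g, which encodes the neutrophil antigen Ly6G, stood at 594 (550.3 to 640.4), 730.1 (698 to 764) and 843 (796 to 892) CPM in neutrophil-like cells of the control, AngII and SLE123 library. It was found in 17.2%, 39.2% and 40.5% of these cells at median depths of 1142, 1976 and 1172 UMIs, and in 0.0383%, 0.200% and 0.104% of B cell-like cells. In classical monocyte-like cells it was found in 0 of 194, 96 and 187 cells, so the share with a Ly6g UMI could be as high as 1.55%, 3.12% and 1.60%. The log2 ratio in neutrophil-like cells was 0.30 (0.17 to 0.43) in AngII and 0.51 (0.37 to 0.64) in SLE123, and against the control hashtags alike in Xist 0.047 (-0.10 to 0.20) and 0.84 (0.64 to 1.04). Hashtag populations ran from 67.2 to 920.1 CPM in control, 559.9 to 939.6 in AngII and 87.6 to 1386 in SLE123, a wider spread inside the control and SLE123 library than the difference between libraries. None of 4 members separated by hashtag in neutrophil-like cells of SLE123, beside 1.34% of genes, and 0 of 4 in those of AngII, beside 1.76%.

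The maturity of the neutrophils moved with this level. Immature neutrophil-like cells, set apart by granule genes, held 1202 (1110.0 to 1300.2), 981 (935 to 1028) and 1067 (1003 to 1133) CPM of Ly6g, and mature ones 58.9 (41.0 to 81.9), 178 (149.9 to 211) and 248 (199.8 to 303) CPM. Immature cells made up 13.8% of neutrophil-like cells in control, 30.3% in AngII and 33.5% in SLE123. Among immature cells alone the log2 ratios were below 0, at -0.29 (-0.43 to -0.16) in AngII and -0.17 (-0.32 to -0.028) in SLE123. Among mature cells they were 1.60 (1.05 to 2.18) and 2.07 (1.50 to 2.68). With the study's limits read as UMIs, which leaves out the deep immature cells, the class ratio was -0.062 in AngII and 1.86 in SLE123. The part of maturity in the level of the whole class was not tested.

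Ly6c2 moved with maturity as well. Neutrophil-like cells held 708 (659.6 to 758), 926 (889.5 to 964) and 1246 (1189 to 1305) CPM of Ly6c2, immature ones 1336 (1239 to 1439.5), 1253 (1201 to 1306) and 1588 (1510.3 to 1668) and mature ones 131 (104 to 164), 179.6 (151 to 212) and 293 (241 to 353) CPM. The AngII ratio was 0.39 (0.27 to 0.51) over the class and -0.093 (-0.22 to 0.032) in immature cells, and the SLE123 ratio 0.82 (0.70 to 0.94) over the class and 0.25 (0.12 to 0.38) in immature cells. Over the class, the AngII ratio changed sign to -0.43 with the study's limits read as UMIs and to -0.19 against Xist-positive control cells, while the SLE123 ratio became 1.61 and 0.23. Against the control hashtags alike in Xist the ratios were 0.17 (0.033 to 0.31) in AngII and 1.10 (0.92 to 1.28) in SLE123. Of neutrophil-like cells with Ly6g, 84.9%, 83.8% and 88.2% also had Ly6c2 in the control, AngII and SLE123 library, against 7.81%, 12.0% and 14.0% of those without. Ly6g and Ly6c2 were thus largely in the same cells, which were also the deeper ones, since immature cells had median depths of 5455, 7930 and 4057 UMIs and mature cells 1069, 1675 and 842.

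Ly6e was distributed the other way. Mature neutrophil-like cells held 750.4 (682 to 823), 532 (482 to 586) and 878 (786 to 978) CPM and immature ones 32.6 (19.0 to 52.2), 38.1 (29.5 to 48.4) and 154 (131 to 181) CPM. The AngII ratio was -1.20 (-1.38 to -1.02) over the class and -0.50 (-0.69 to -0.30) in mature cells. In SLE123 it was -0.27 (-0.45 to -0.090) over the class, 0.23 (0.017 to 0.44) in mature and 2.24 (1.52 to 3.06) in immature cells. Against the control hashtags alike in Xist the ratios over the class were -0.68 (-0.93 to -0.43) in AngII and -0.70 (-0.91 to -0.49) in SLE123, and in mature cells -0.22 (-0.48 to 0.040) and 0.012 (-0.23 to 0.25). Over the 18 hashtag populations, Pearson's r with the immature share was 0.68 for Ly6g, 0.93 for Ly6c2 and -0.73 for Ly6e, and inside the 3 libraries it kept its sign for each gene. The populations held 22 to 222 neutrophil-like cells and share libraries.

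For AngII, 2 of 4 members were past 2-fold in neutrophil-like cells, Ly6e and Ly6d, both downward, beside 4.27% of all genes. Ly6e was inside 2-fold against the control hashtags alike in Xist. Ly6d had a ratio of -1.35 (-1.79 to -0.92), but at a UMI in 7.61%, 10.5% and 5.44% of neutrophil-like cells it was near the NK cell-like background. For SLE123, 0 of 4 were, beside 7.51% of genes, with Ly6d just inside the limit at -0.996 (-1.49 to -0.52). In the same class, 3 of 9 interferon response genes were past 2-fold downward in AngII with a median of -0.68 beside -0.095 over all genes. Usp18 (-0.14) and Rsad2 (-0.43) were highest and Oasl2 (-1.26) and Zbp1 (-1.24) lowest. The summed list ran from 317 to 982 CPM over the AngII hashtags. Control hashtags without Xist, C0301 to C0303, overlapped these at 736, 393 and 1169 CPM, and C0304 to C0306 held 1011, 1594 and 2174 CPM. The parts of this mixture and of the immature share in the drop were not tested. In SLE123, 1 of 9 interferon response genes was past 2-fold, upward, with a median of 0.26 beside -0.11, with Ifit1 (1.02) and Zbp1 (0.50) highest. Of 5 interferon gamma inducible genes tested, 3 were downward past 2-fold in AngII, where Irgm1 (-0.68) and Irgm2 (-0.94) were highest and Igtp (-1.79) and Irf1 (-1.31) lowest. In SLE123 1 of the 5 was, downward, and Gbp2 (-0.24) and Irgm1 (-0.39) were highest and Irf1 (-1.10) and Irgm2 (-0.85) lowest.

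**Figure D4:**
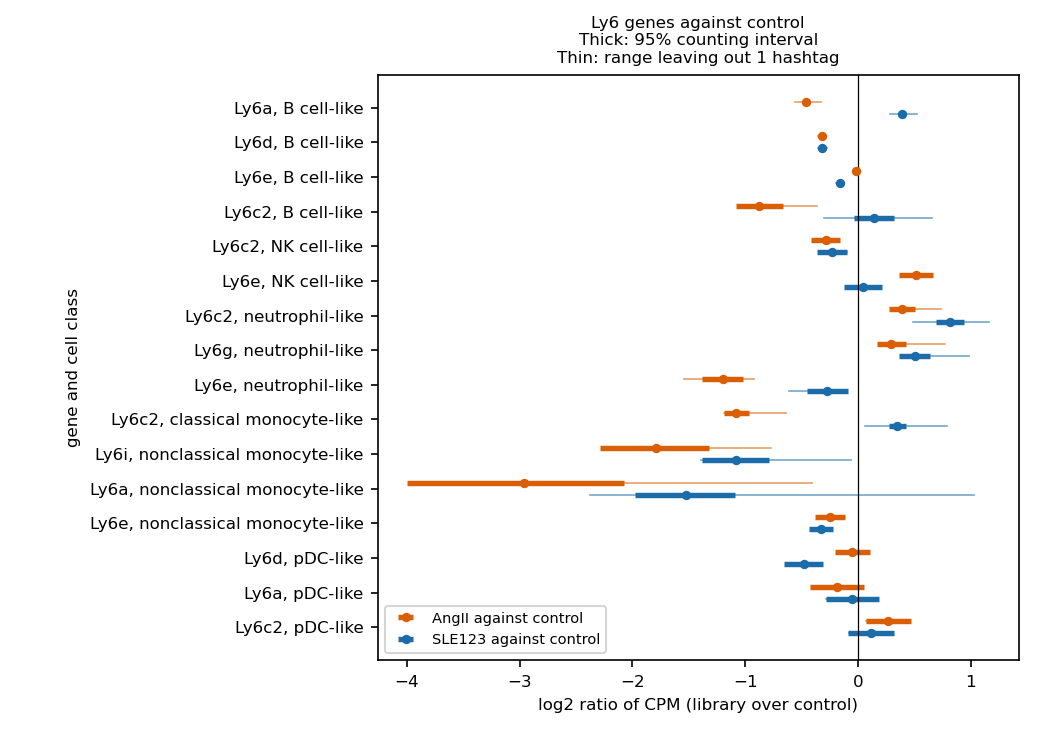
Log2 ratio of CPM to the control library (horizontal axis) for members in their cell classes (vertical axis), coloured by model, with 95% counting intervals (thick) and the range when 1 hashtag population is left out (thin). Ly6a in B cell-like cells and Ly6c2 in classical monocyte-like cells lie on opposite sides of 0 in the 2 models, and in nonclassical monocyte-like cells the thin ranges of Ly6a and Ly6i are wide.

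Ly6i, a relative of Ly6a of little known function, was highest in nonclassical monocyte-like cells, which patrol blood vessels. These held 570.2 (499 to 648), 165 (119.7 to 221) and 269 (229 to 315) CPM in the control, AngII and SLE123 library, and 49.1%, 26.6% and 32.0% of them had a UMI. Classical monocyte-like cells held 42.0 (29.6 to 57.9), 23.7 (13.5 to 38.4) and 37.6 (25.7 to 53.0) CPM. B cell-like cells had a UMI in 0.138%, 0.0523% and 0.223% of cells. The log2 ratio in nonclassical monocyte-like cells was -1.79 (-2.29 to -1.32) in AngII and -1.08 (-1.38 to -0.79) in SLE123.

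Much of that difference rested on control hashtag C0305. Its 45 nonclassical monocyte-like cells held 1165 CPM of Ly6i, with a UMI in 38 of them and at most 12 of 156 UMIs from 1 cell. The other 3 control populations with at least 20 cells held 116, 204 and 362 CPM. The 5 of SLE123 held 222 to 457 CPM, and the single one of AngII held 119 CPM. Without C0305 the ratios were -0.77 in AngII and -0.059 in SLE123. Against the control hashtags alike in Xist, which hold C0305 for SLE123 and not for AngII, they were 0.12 (-0.61 to 0.86) in AngII, with the sign turned, and -1.76 (-2.07 to -1.45) in SLE123. Against Xist-positive control cells they were -2.74 and -2.03.

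Ly6a in nonclassical monocyte-like cells rested on the same hashtag. The class held 321 (268 to 380.4), 41.2 (20.6 to 73.7) and 111 (86.0 to 142) CPM, and C0305 held 866 CPM, with 116 of the 131 control UMIs. The other 3 control populations with at least 20 cells held 21.1, 34.0 and 181 CPM. The ratios of -2.96 (-4.00 to -2.07) in AngII and -1.52 (-1.98 to -1.09) in SLE123 became -0.41 and 1.03 without it, the second with its sign turned. Set against the control hashtags alike in Xist they were 0.87 (-0.88 to 2.98), with the sign turned, and -2.32 (-2.78 to -1.88). Of control cells with Ly6a, 69.2% had Ly6i, against 42.9% of those without.

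Among nonclassical monocyte-like cells, interferon response genes were highest in that population too. Their summed level in nonclassical monocyte-like cells was 1389 CPM in C0305 and 306, 766 and 565 CPM in C0302, C0301 and C0304. In SLE123 it ran from 366 to 915 CPM over 5 hashtags. Classical monocyte-like cells of C0305 held 1841 CPM and B cell-like cells 409 CPM, the highest of the control populations with at least 20 cells in both classes. In neutrophil-like cells C0305 held 1594 CPM, below C0306 at 2174 CPM. In NK cell-like cells it held 231 CPM, the fifth of the 6 control populations, which ran from 181 to 319 CPM. The part of these genes in the Ly6a and Ly6i values was not tested.

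**Figure D5:**
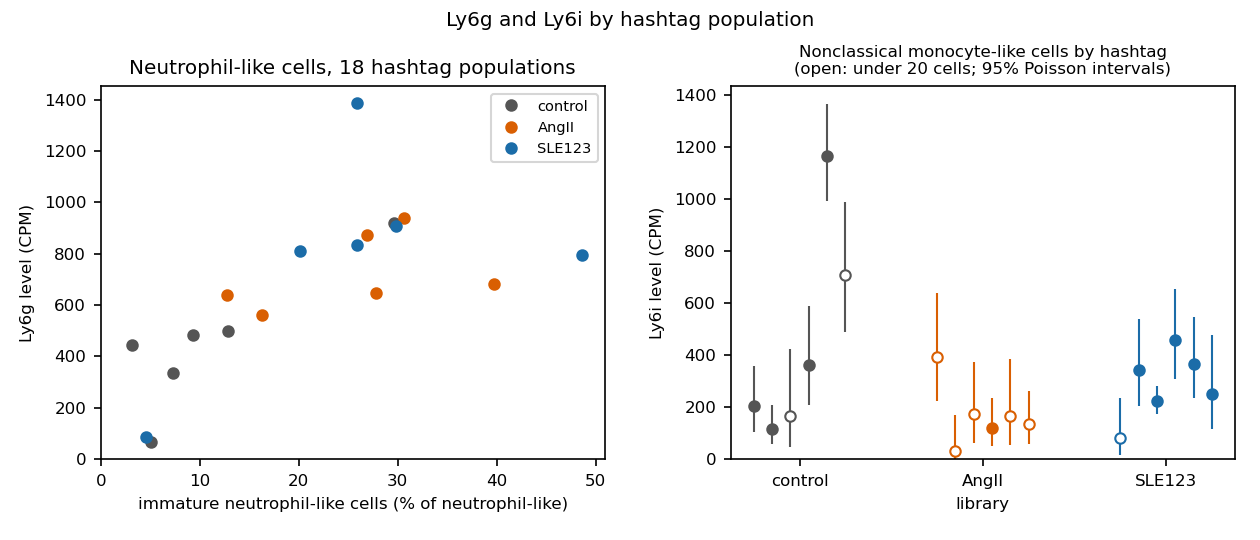
Left, Ly6g level (CPM) against the immature share (%) of neutrophil-like cells in the 18 hashtag populations, coloured by library; right, Ly6i level (CPM, with 95% Poisson intervals) in nonclassical monocyte-like cells of each hashtag population, with open points for under 20 cells. Ly6g goes up with the immature share (r = 0.68), and control hashtag C0305 stands highest for Ly6i.

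In cDC2-like cells, a conventional dendritic cell class, Ly6a stood at 173 (129 to 229) CPM in SLE123 and 19.1 CPM in control, a log2 ratio of 3.18 (1.73 to 5.11) from 50 and 4 UMIs. A UMI was found in 18.5% and 6.52% of 65 and 46 cells. The ratio thus rested on few cells and on 4 control UMIs. It is given here neither by hashtag nor against the control hashtags alike in Xist, so its dependence on either is not shown.

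Over 38 sums of a class in a library, among 8162 genes, the patterns most like Ly6d were those of Iglc3 (r = 0.96), Fcrla (0.92), Lynx1 (0.90), Gm30211 (0.90) and Ly6k (0.89). Those most like Ly6a were Ly6k (0.84), Iglc3 (0.83), Gm30211 (0.81), Prr5 (0.81) and Fcrla (0.81). Ly6k and Lynx1 are Ly6/uPAR genes themselves, Iglc3 an immunoglobulin light chain constant region and Fcrla an Fc receptor-like protein of B cells. Itgb2l, 9830107B12Rik, Inhba, Cstdc4 and Il1f9 (0.99 each) were most like Ly6g. Smpdl3b (0.91), Skint3 (0.90), Thbd (0.88), Cyp2ab1 (0.88) and Tiam2 (0.88) were most like Ly6i. Chst12 (0.74), Gas7 (0.73), Hsd11b1 (0.72), Ldhb (0.68) and Peli2 (0.67) were most like Ly6c2, and Jarid2 (0.78), Riox2 (0.76), Fam174a (0.74), Smim26 (0.74) and Spns1 (0.73) most like Ly6e. Over the B cell-like hashtag populations, Rabac1, Krit1, Ttc14, Rb1cc1 and mt-Nd4 were most like Ly6d (0.88 to 0.86) and Arhgap45, Wasf2, Tmod3, Kdm7a and Smap2 most like Ly6e (0.93 to 0.92).

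Of 33 other Ly6/uPAR genes, 10 had at least 50 UMIs in kept cells and 15 had none. In B cell-like cells, 2 of 7 tested were past 2-fold in SLE123, both upward, beside 7.00% of all genes, and 1 of 8 in AngII, upward, beside 1.66%, with medians of 0.38 and -0.21. Those of SLE123 were Cd59a and Cd177, and that of AngII was Cd177. In B cell-like cells Cd177 gave only 12, 50 and 46 UMIs in the control, AngII and SLE123 library. Cd59a, which protects cells from complement, stood at 8.84 CPM in SLE123 and 1.63 in control, a log2 ratio of 2.44 (1.98 to 2.92). Lynx1 had ratios of -0.44 (-0.55 to -0.34) in AngII and -0.63 (-0.74 to -0.52) in SLE123, below 0 in both as for Ly6d. Ly6k had -0.29 (-0.46 to -0.13) and 0.38 (0.23 to 0.53), on the same sides of 0 as Ly6a. Plaur, the urokinase receptor, had 0.58 (0.50 to 0.65) and 0.57 (0.50 to 0.65). Cd177, a neutrophil surface protein, was at under 2 CPM in B cell-like cells, and in neutrophil-like cells had 1.01 (0.89 to 1.14) and 0.88 (0.74 to 1.02). Cd177 was itself a marker of the immature subset, which made up 13.8%, 30.3% and 33.5% of neutrophil-like cells in control, AngII and SLE123. The part of this make-up in its ratios was not tested. Cd59b, Gml, Ly6m, Ly6g5b and Pinlyp gave 71 to 172 UMIs each in all. Of 18 genes that build the GPI anchor, 0 were past 2-fold in B cell-like cells of either model, beside those same shares of all genes, with medians of 0.10 in AngII and -0.083 in SLE123.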

How the data were processed

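Spleen cells of 3 libraries (5′ version 2 chemistry, TotalSeq-C hashtags) were analysed. The authors deposited raw UMI counts per gene and hashtag from Cell Ranger 6.0.0, with mm10 named in the submitters' processing notes, and no normalization. The members and lists were chosen with earlier results of these data known. Barcodes with over 200 and under 3500 genes and under 15% mitochondrial UMIs were kept. Those positive for several hashtags by Otsu thresholds (2446, 1809 and 3670 in control, AngII and SLE123) were removed as doublets, and doublets within 1 hashtag were not seen. A cell joined a class with 3 of 8 markers and a lead of 2, and a subset with 2 and a lead of 1. Classes with under 20 cells in a library were not compared. Ratios used genes with at least 50 UMIs, a 2-fold limit, exact Poisson, Clopper-Pearson and conditional 95% intervals (scipy 1.17.1) and, as 1 library makes a group, no test. Zero counts were taken to allow 3 counts. The ratio step was tested on simulated data. Pattern likeness used log2(CPM + 10) of genes reaching 50 CPM, and named its 5 nearest genes, members and markers left out. Interferon lists name their 2 highest and 2 lowest genes, except where a result is not reported here. Alternatives covered limits read as UMIs, doublets kept, edgeR 4.0.16 TMM and DESeq2 1.42.0 scaling, looser and stricter gates, Leiden clusters (scanpy 1.11.5, resolution 2), hashtags left out, control cells with Xist and, added later, the control hashtags on the same side of 10% of cells with Xist as the model library.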

Additional observations from a re-analysis of the deposited data

Results flagged for a closer look

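Among 42 sets of hashtag values of 1 member in 1 class of 1 library, 5 held a population that stood far from the others by Dixon's criterion, which chance alone marks in about 1 in 20 sets. In B cell-like cells of the control library, Ly6c2 stood at 38.9 CPM in hashtag C0305, with the next population at 18.5 CPM. In neutrophil-like cells, Ly6e stood at 461 CPM in AngII hashtag C0305, with the next at 209 CPM, and at 832 CPM in SLE123 hashtag C0304, with the next at 366 CPM. Those 2 populations had the lowest immature shares of their libraries, 12.7% and 4.55%. In NK cell-like cells, Ly6d stood at 129 CPM in AngII hashtag C0302, with the next at 47.2 CPM, and at 161 CPM in control hashtag C0301, with the next at 77.6 CPM. The Ly6d levels in NK cell-like cells were those read as background RNA. No further explanation was tested.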

How the results depend on the processing

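Ratios beyond the counting interval of the reported value are given by setting, AngII or SLE123 standing for the ratio to control. With the study's limits read as UMIs, log2 ratios became Ly6a -0.64 (AngII) and 0.45 (SLE123), Ly6d -0.16 (SLE123) and Ly6e 0.037 (AngII) and -0.062 (SLE123) in B cell-like cells, Ly6c2 -0.43 (AngII) and 1.61 (SLE123) and Ly6g -0.062 (AngII) and 1.86 (SLE123) in neutrophil-like cells, Ly6c2 0.050 (AngII) in NK cell-like cells, and Ly6c2 0.19 (SLE123) in classical monocyte-like cells. With TMM scaling they were Ly6a -0.51 (AngII) and 0.44 (SLE123), Ly6d -0.37 (AngII) and -0.27 (SLE123) and Ly6e -0.065 (AngII) and -0.11 (SLE123) in B cell-like cells. With median-of-ratios scaling they were Ly6a -0.52 (AngII) and 0.44 (SLE123), Ly6d -0.38 (AngII) and -0.27 (SLE123) and Ly6e -0.076 (AngII) and -0.11 (SLE123) in B cell-like cells. Against control cells with a Xist UMI they were Ly6a -0.77 (AngII) and 0.078 (SLE123), Ly6d -0.28 (AngII) and -0.28 (SLE123) and Ly6e 0.060 (AngII) and -0.084 (SLE123) in B cell-like cells, Ly6c2 -0.19 (AngII) and 0.23 (SLE123) and Ly6g 0.073 (AngII) and 0.28 (SLE123) in neutrophil-like cells, Ly6c2 0.46 (AngII) and 0.51 (SLE123) in NK cell-like cells, Ly6c2 -1.38 (AngII) and 0.050 (SLE123) in classical monocyte-like cells, and Ly6i -2.74 (AngII) and -2.03 (SLE123) in nonclassical monocyte-like cells. Against the control hashtags alike in Xist, added after seeing the data, they were Ly6a -0.23 (AngII) and 0.19 (SLE123), Ly6d -0.34 (AngII) and -0.29 (SLE123) and Ly6e -0.044 (AngII) and -0.12 (SLE123) in B cell-like cells, Ly6c2 0.17 (AngII) and 1.10 (SLE123) and Ly6g 0.047 (AngII) and 0.84 (SLE123) in neutrophil-like cells, Ly6c2 -0.49 (AngII) and -0.027 (SLE123) in NK cell-like cells, Ly6c2 -0.42 (AngII) and 0.034 (SLE123) in classical monocyte-like cells, and Ly6i 0.12 (AngII) and -1.76 (SLE123) in nonclassical monocyte-like cells. With the looser gate they were Ly6d -0.33 (SLE123) in B cell-like cells, and Ly6g 0.15 (AngII) and 0.29 (SLE123) in neutrophil-like cells. With the stricter gate they were Ly6d -0.30 (SLE123) in B cell-like cells, and Ly6c2 0.54 (AngII) and Ly6g 0.50 (AngII) and 0.67 (SLE123) in neutrophil-like cells. By Leiden clusters they were Ly6d -0.35 (SLE123) and Ly6e -0.18 (SLE123) in B cell-like cells, Ly6g 0.14 (AngII) and 0.18 (SLE123) in neutrophil-like cells, and Ly6i -1.49 (SLE123) in nonclassical monocyte-like cells. With doublets kept it was Ly6d -0.30 (AngII) in B cell-like cells. Leaving out 1 hashtag population at a time, the ratios ran over Ly6a -0.55 to -0.33 (AngII) and 0.28 to 0.53 (SLE123), Ly6d -0.36 to -0.29 (AngII) and -0.36 to -0.27 (SLE123) and Ly6e -0.038 to -0.00061 (AngII) and -0.19 to -0.12 (SLE123) in B cell-like cells, Ly6c2 0.32 to 0.74 (AngII) and 0.49 to 1.17 (SLE123) and Ly6g 0.19 to 0.78 (AngII) and 0.40 to 0.98 (SLE123) in neutrophil-like cells, Ly6c2 -0.37 to -0.20 (AngII) and -0.31 to -0.098 (SLE123) in NK cell-like cells, Ly6c2 -1.19 to -0.64 (AngII) and 0.067 to 0.79 (SLE123) in classical monocyte-like cells, and Ly6i -2.20 to -0.77 (AngII) and -1.39 to -0.059 (SLE123) in nonclassical monocyte-like cells. The highest ratios of neutrophil-like cells came without control hashtag C0302 and those of monocyte-like cells without control hashtag C0305. Likewise, SLE123 ratios ran from -0.028 (without SLE123 hashtag C0303) to 0.25 for Ly6e in classical monocyte-like cells and from -2.37 to 1.03 (without control hashtag C0305) for Ly6a in nonclassical monocyte-like cells, where the AngII ratio was 0.87 against the control hashtags alike in Xist, and Ly6c2 there was -0.88 (SLE123) with the stricter gate. With no filter beyond 1 UMI in each library, members past 2-fold numbered 1 (SLE123) and 1 (AngII) in B cell-like, 1 (SLE123) and 5 (AngII) in neutrophil-like and 1 (AngII) in NK cell-like cells. With at least 200 UMIs the AngII count in neutrophil-like cells was 1, and by Leiden clusters the SLE123 count there and the AngII count in NK cell-like cells were 1 each. Without control hashtag C0305, an alternative chosen after seeing the data, the counts ran from 0 to 2, with 1 (SLE123) in neutrophil-like cells. The limits read as UMIs remove cells of 3500 UMIs or more, immature neutrophil-like cells among them, by construction, and the causes of the other changes were not tested. Of 143 recomputed values of the ratios listed by setting above, 75 stayed inside the reported interval, 59 left it on the same side of 0 and 9 left it with the sign turned. Of 192 with 1 hashtag population left out, 151 stayed inside and 41 left it on the same side. For the other ratios of members in classes and subsets, 216 of 276 stayed inside and 12 left it with the sign turned under other settings, and 346 of 364 stayed inside and 5 left it with the sign turned with 1 population left out. No paired analysis was possible because each group is 1 library and replicate numbers pair no samples. With 1 library a group and unassigned hashtags, no spread between mice could be had, and depth limits the smaller classes, such as the 24 to 45 pDC-like cells.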
